A study of Mus musculus with 12 samples.

Results

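Glycogen is the branched polymer in which heart muscle stores glucose, and 9 genes of its synthesis and breakdown were followed across cardiomyocyte populations of the neonatal mouse heart. The members, chosen by symbol, were Ugp2, Gyg, Gys1, Gbe1, Pygm, Pygb, Pygl, Phka1 and Ppp1r3c. All 9 were found among the 24421 genes of the count files, and all 9 were among the 12252 genes that passed the filter on low counts. The design crosses these populations with a genotype that lets more glucose into cardiomyocytes. The data are 12 RNA-seq libraries of cardiomyocytes from hearts of CD1 mice at postnatal day 1, with no injury or treatment named in the labels. Glut1 transgenic hearts carried aMHC-hGLUT1tg and aMHC-Cre tg together with the R26+/YFP reporter, and here the cardiac αMHC promoter drives human GLUT1. Control hearts were labelled wild type (WT), and by the methods of the study they too carried the αMHC-Cre driver and the R26 YFP reporter, so both genotypes share the Cre and the reporter.

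The cells were sorted on YFP, which marks the cardiomyocyte lineage, and on Mitotracker, a dye of mitochondrial content. Cells labelled with the higher Mitotracker signal are called Tnnt2low and those with the lower signal Tnnt2high, as the study pairs them. There were 4 Glut1 transgenic hearts, each of which gave 1 library of either population, and 2 WT replicates, each again with 1 library of either population. Both WT replicates carry the same heart number in their labels and may come from 1 heart. The edgeR fit takes its spread from all 12 libraries, 8 of them transgenic. The p-values that involve WT cells therefore hold no sure measure of the spread between WT hearts. Libraries held 4065306 to 9815069 reads in genes, with 7301762 to 9815069 in Glut1 transgenic Tnnt2low, 4065306 to 5241475 in Glut1 transgenic Tnnt2high, 6399746 to 6803962 in WT Tnnt2low and 4975085 to 7483520 in WT Tnnt2high libraries. Slc2a1, the mouse gene of the transporter, was 33.5 to 92.55 CPM (normalised read counts scaled to a common library size) in the 8 Glut1 transgenic libraries and 13.3 to 28.9 CPM in the 4 WT libraries. Reads of the human transgene could reach this row only where they match mouse sequence. The Slc2a1 ratio of transgenic to WT cells was 3.35 in Tnnt2low and 3.03 in Tnnt2high cells. It was called by edgeR in neither population (adjusted p = 0.899 in Tnnt2high cells), although the unadjusted edgeR p was 0.000848 in Tnnt2low and 0.0018 in Tnnt2high cells. The study, which tested with DESeq2, lists Slc2a1 among its top genes raised in Glut1 transgenic cells of both populations. Tnnt2 fell in Tnnt2low cells of Glut1 transgenic hearts (log2 fold change -0.42, SE 0.09, edgeR adjusted p = 0.00723), but in WT cells its difference was -0.04 (SE 0.13, edgeR adjusted p = 1.0).

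Cardiomyocyte markers summed to 111100 to 133600 CPM in all libraries. Markers of other cells were far lower, with sums of 8.41 to 314.5 CPM for endothelial cells, 46.4 to 897.8 CPM for fibroblasts, 917.8 to 1625 CPM for smooth muscle and pericytes, 63.7 to 163.7 CPM for skeletal muscle and at most 9.49 CPM for leukocytes. Erythroid markers summed to at most 25.9 CPM and glia and neuron markers to at most 5.71 CPM. Hepatocyte markers, of interest because Pygl is the phosphorylase of the liver, reached at most 1.65 CPM, and Alb, Afp, Serpina1a and Fgb had no reads in any library. In such bulk libraries, fewer cells of a type and less RNA per cell cannot be told apart.

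Synthesis of glycogen starts from glucose-1-phosphate, which UDP-glucose pyrophosphorylase (Ugp2) turns into the sugar donor UDP-glucose. Glycogenin (Gyg) makes the primer on which a particle grows, glycogen synthase of muscle (Gys1) lengthens the chains, and the branching enzyme (Gbe1) adds the branch points. Glycogen phosphorylase takes glucose units off again and exists as 3 isozymes, named for muscle (Pygm), brain (Pygb) and liver (Pygl). Phosphorylase kinase, whose muscle alpha subunit is Phka1, switches phosphorylase on, and Ppp1r3c, also known as PTG, brings protein phosphatase 1 to glycogen, where it favours synthesis. The fetal and neonatal heart is rich in glycogen, which serves as fuel before fatty acid oxidation takes over.

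Among the members, the muscle and brain phosphorylases were the most abundant transcripts per length and Ppp1r3c and Phka1 the least. Divided by exon length, the mean level over 12 libraries was 210.2 ± 11.99 CPM per kb (SD, n = 12) for Pygm, 165.5 ± 14.3 for Pygb, 118.7 ± 19.8 for Gyg and 65.1 ± 11.3 for Ugp2. It was 47.7 ± 6.07 CPM per kb for Gys1, 28.2 ± 10.8 for Pygl, 15.9 ± 3.09 for Gbe1, 15.2 ± 10.2 for Ppp1r3c and 6.44 ± 1.54 for Phka1. Pygm exceeded Pygb in 12 of 12 libraries, and their ranges over the libraries did not overlap. Every other neighbouring pair in this order overlapped in range. Even so, Pygb exceeded Gyg, Gyg exceeded Ugp2 and Ugp2 exceeded Gys1 in each of the 12 libraries, whereas Gbe1 exceeded Ppp1r3c in only 6.

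The muscle and brain isozymes of phosphorylase were both abundant. Of the summed phosphorylase level per length, Pygm made up 52.0% ± 2.44 (SD, n = 12), Pygb 41.0% ± 3.73 and Pygl 6.95% ± 2.54. In Glut1 transgenic hearts the share of Pygb was 43.0% ± 3.0 in Tnnt2low and 37.7% ± 3.32 in Tnnt2high cells (SD, n = 4 each), with ranges of 39.7% to 46.0% and 33.2% to 41.3% that overlapped. In WT hearts it was 42.4% ± 2.65 and 42.3% ± 4.24 (SD, n = 2 each). For glycogen synthase, the muscle gene Gys1 made up 99.9% ± 0.507 of the summed level (SD, n = 12), and the liver gene Gys2 had reads in only 1 library.

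**Figure D1:**
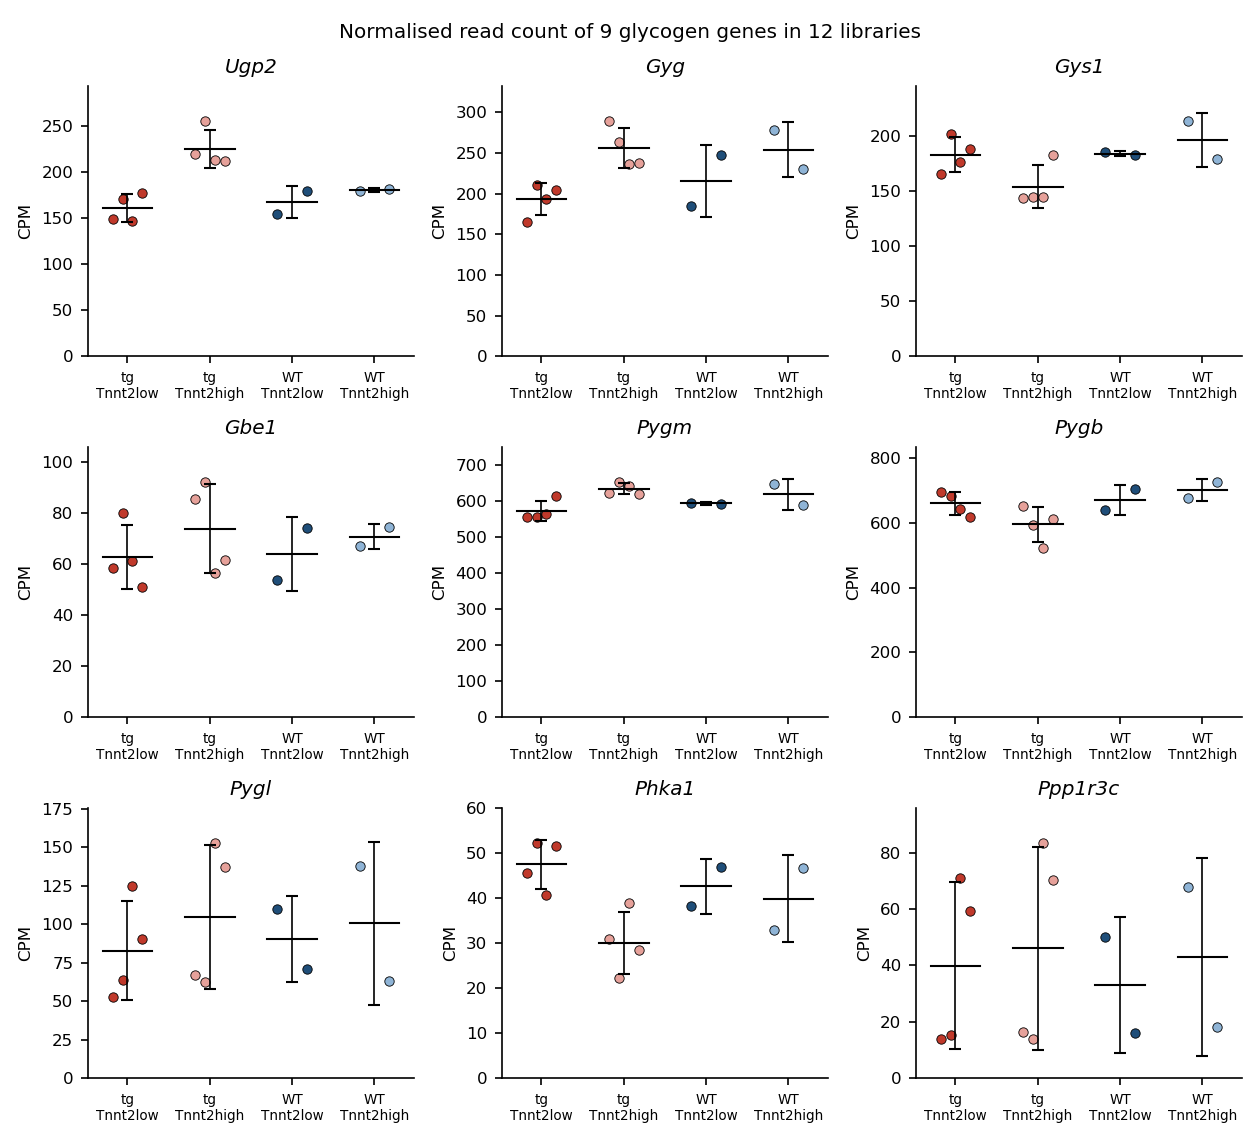
Normalised read count (CPM, linear axis from 0) of the 9 genes in each library, by group (tg, Glut1 transgenic). Points are libraries, long bars are means and error bars are SD (n = 4 for tg groups, n = 2 for WT groups). Ugp2, Gyg, Pygm and Phka1 are the members whose transgenic populations do not overlap, and Ppp1r3c splits within every group into libraries of at most 18.2 CPM and libraries of at least 50.2 CPM.

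The first comparison asked whether glycogen genes differ between the Tnnt2low and Tnnt2high populations of Glut1 transgenic hearts. Ugp2 and Gyg, which act at the start of synthesis, were lower in Tnnt2low cells, and Phka1, a subunit of the kinase that activates breakdown, was higher. The other 6 members did not pass the test, and none of the 3 calls held with an offset for transcript length and GC content (below). Fibroblast markers also differed between these groups, with sums of 46.4 to 99.8 CPM in Tnnt2low and 149.2 to 897.8 CPM in Tnnt2high libraries, and endothelial sums were 8.41 to 75.1 and 29.1 to 245.3 CPM. Their part in the differences was not tested. Thus 3 of 9 members were called (1 higher, 2 lower, edgeR adjusted p under 0.05), beside 8.42% of all 12252 tested genes called higher and 8.33% called lower (16.7% in either direction). The same 3 members had an unadjusted p under 0.05, which 31.0% of all genes had. The median log2 fold change was -0.21 over the 9 members and -0.01 over all tested genes.

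Ugp2 (chromosome 11, 21321138 to 21371201, minus strand, mm10) had 149.2, 170.8, 147.2 and 177.0 CPM in Tnnt2low and 220.4, 255.5, 213.0 and 211.9 CPM in Tnnt2high libraries of transgenic replicates 1 to 4. Each Tnnt2high library lay above every Tnnt2low library. The ratio of Tnnt2low to Tnnt2high was 0.715 (95% confidence interval 0.602 to 0.849; log2 fold change -0.48, SE 0.12, edgeR adjusted p = 0.0119). The exact two-sided permutation test gave p = 0.0286, the smallest p that 4 against 4 libraries allow. It assigned libraries freely and ignored the pairing by heart. Any 4 against 4 libraries that do not overlap give this value, so here and below it only restates that the groups were apart.

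Gyg (chromosome 3, 20122084 to 20155317, minus strand) had 165.1, 210.6, 193.4 and 204.0 CPM in Tnnt2low and 289.0, 262.9, 236.3 and 237.5 CPM in Tnnt2high libraries of the same hearts. The groups did not overlap, and the widest gap within a heart was in replicate 1 (log2 difference -0.81, against -0.22 to -0.32 in the other 3). The ratio was 0.754 (95% confidence interval 0.620 to 0.915; log2 fold change -0.41, SE 0.13, edgeR adjusted p = 0.046, exact permutation p = 0.0286). This call lay close to the threshold. With the heart as replicate block the edgeR adjusted p was 0.0658, and it was 0.137 without the Tnnt2low library of replicate 1.

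Phka1 (chromosome X, 102513975 to 102644246, minus strand) had 45.6, 52.2, 40.7 and 51.55 CPM in Tnnt2low and 30.9, 22.2, 38.9 and 28.5 CPM in Tnnt2high libraries. The groups did not overlap, but the difference within a heart ranged from 0.06 on the log2 scale in replicate 3 to 1.22 in replicate 2. The ratio was 1.58 (95% confidence interval 1.20 to 2.07; log2 fold change 0.66, SE 0.19, edgeR adjusted p = 0.0265, exact permutation p = 0.0286). The call was lost in 6 of the 12 edgeR fits that left out 1 library, with an adjusted p of up to 0.0792 (without the Tnnt2high library of replicate 2). Phka1 is X-linked, and Xist and Ddx3y showed that transgenic replicates 2 and 4 were the male hearts (Xist at most 4.66 CPM in their 4 libraries and at least 199.0 CPM in the other 8). Each sex thus gave both populations in equal number here, but the Phka1 difference was wider in the male hearts. Within a heart it was 1.22 and 0.85 on the log2 scale in transgenic replicates 2 and 4. In the female transgenic replicates 1 and 3 it was 0.56 and 0.06, and in the female WT replicates 0.21 and 0.01. The part of sex in the Phka1 difference was not tested.

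**Figure D2:**
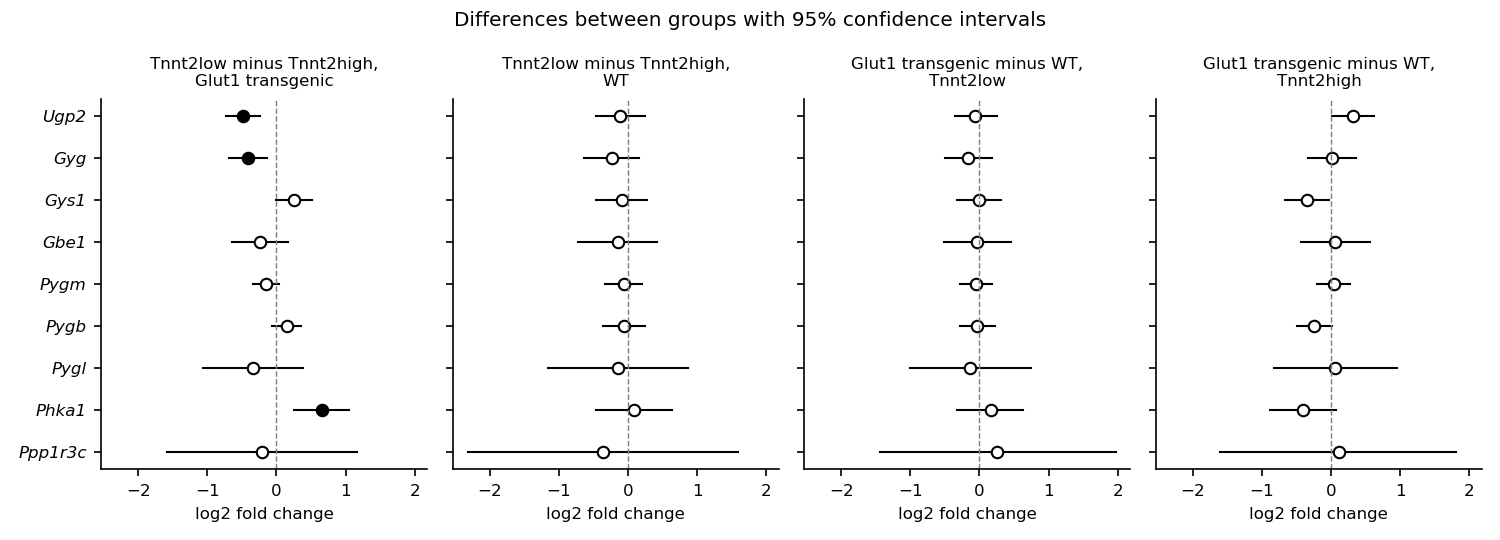
Log2 fold change of the 9 genes in 4 comparisons, with 95% confidence intervals from the edgeR fit of 12 libraries; filled points passed an adjusted p of 0.05. Filled points are seen only between the populations of Glut1 transgenic hearts (Ugp2 -0.48, Gyg -0.41, Phka1 0.66), and the widest intervals belong to Ppp1r3c.

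Of the members that did not pass, Pygm (chromosome 19, 6384399 to 6398459, plus strand) had 554.8, 557.0, 564.2 and 614.5 CPM in Tnnt2low and 622.6, 652.2, 641.2 and 620.2 CPM in Tnnt2high libraries. These groups did not overlap either (exact permutation p = 0.0286), although the difference was small (log2 fold change -0.15, SE 0.09, edgeR adjusted p = 0.285). With it, the groups were apart for 4 of 9 members and for 22.2% of all tested genes. Pygb (chromosome 2, 150786735 to 150831758, plus strand) had 694.9, 682.4, 642.8 and 618.9 CPM in Tnnt2low and 651.0, 592.3, 523.2 and 612.7 CPM in Tnnt2high libraries (log2 fold change 0.15, SE 0.10, edgeR adjusted p = 0.332). Gys1 (chromosome 7, 45434844 to 45456619, plus strand) had 165.6, 201.5, 176.1 and 188.3 CPM against 143.7, 144.6, 144.6 and 182.9 CPM, where replicate 4 of the Tnnt2high group stood apart from the rest (log2 fold change 0.25, SE 0.12, edgeR adjusted p = 0.182). Gys1 shares 310 exonic bases with Ruvbl2 on the opposite strand, and since no source used here says that the counting used strand, some reads of either gene may be placed in the other or left out. Gbe1 (chromosome 16, 70313949 to 70569716, plus strand) ranged from 51.2 to 80.1 CPM in Tnnt2low and from 56.5 to 92.0 CPM in Tnnt2high libraries, and the groups overlapped widely (log2 fold change -0.24, SE 0.19, edgeR adjusted p = 0.433).

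Fold changes between the populations of Glut1 transgenic hearts followed transcript length across all genes. Over 12188 genes with a known length, the Spearman correlation of fold change and length was 0.53. Genes called higher in Tnnt2low cells had a median exon length of 6.74 kb and genes called lower 1.47 kb, where all tested genes had 3.42 kb. Phka1 was the longest member with 6.15 kb, and Gyg (1.92 kb) and Ugp2 (2.87 kb) were under the median of the tested genes. The libraries also differed in the reads outside every exon, with 0.962 ± 0.0756 per gene read in Tnnt2low and 2.38 ± 0.169 in Tnnt2high libraries of transgenic hearts (SD, n = 4 each).

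An offset for length and GC content ended all 3 calls. With it the log2 fold change was -0.29 for Ugp2 (edgeR adjusted p = 0.222), -0.11 for Gyg (0.671) and 0.43 for Phka1 (0.259), and only 143 of 12252 genes (1.17%) were called. With the offset and the replicate block together the adjusted p was 0.190 for Ugp2, 0.648 for Gyg and 0.203 for Phka1, beside 3.91% of all genes called. The 3 members kept their direction in both fits. The part of length in these differences was not tested beyond these fits. Reads outside exons entered no fit, and their part was not tested.

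**Figure D3:**
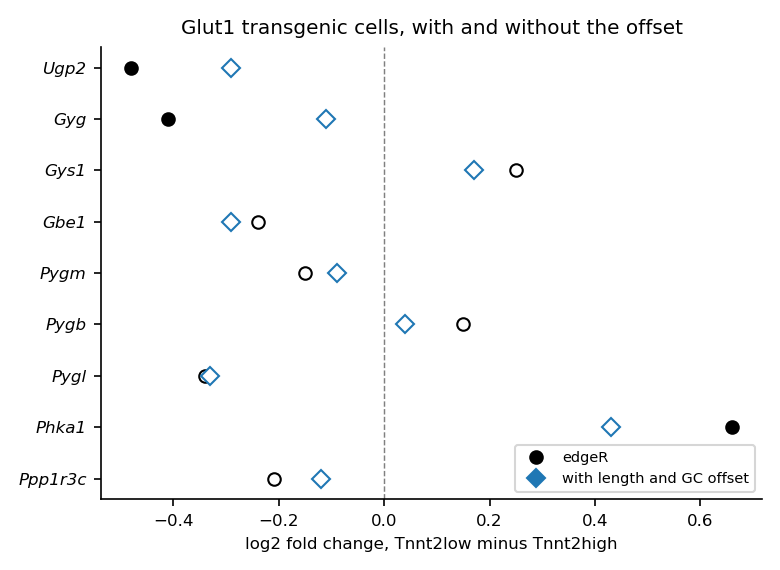
Log2 fold change of the 9 genes between Tnnt2low and Tnnt2high cells of Glut1 transgenic hearts, from the edgeR fit (circles) and from the fit with an offset for transcript length and GC content (diamonds); filled symbols passed an adjusted p of 0.05. Ugp2 moved from -0.48 to -0.29, Gyg from -0.41 to -0.11 and Phka1 from 0.66 to 0.43, and no symbol stayed filled with the offset.

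In WT hearts none of the 9 members was called between the populations, and edgeR called 0 of 12252 genes (0.0% in either direction). At an unadjusted p under 0.05 it marked 0 members and 3.11% of all genes. DESeq2 called 0 members and 3 of 16895 genes. Ugp2 had 155.2 and 179.8 CPM in WT Tnnt2low and 179.7 and 182.3 CPM in WT Tnnt2high libraries (log2 fold change -0.11, 95% confidence interval -0.46 to 0.24). Gyg had 184.8 and 247.1 CPM against 278.3 and 230.0 CPM (-0.23, -0.63 to 0.16), lower in Tnnt2low cells of replicate 1 only. Phka1 had 38.3 and 47.0 CPM against 33.0 and 46.7 CPM (0.09, -0.46 to 0.64). No member had groups that were apart, while 30.2% of all tested genes had such groups with 2 against 2 libraries.

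The population difference was not shown to differ between the genotypes for any member. The interaction (the log2 difference between populations of transgenic hearts less the one of WT hearts) was -0.37 for Ugp2 (95% confidence interval -0.80 to 0.06 on the log2 scale), -0.17 for Gyg (-0.66 to 0.31) and 0.56 for Phka1 (-0.11 to 1.24). The edgeR adjusted p was 0.961 or higher for each of the 9 members, with 0 members and 0.0% of all genes called. At an unadjusted p under 0.05, edgeR marked 0 members and 4.52% of all genes, and DESeq2 called 0 members and 5 of 16895 genes.

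Glut1 transgenic and WT cells were then compared within each population, which asks what goes with genotype. Sex was not balanced here, since all WT libraries were female by Xist and transgenic replicates 2 and 4 were male. An edgeR fit with a sex term called no member in either population. In Tnnt2low cells 0 of 9 members were called, beside 0.00816% of all tested genes (1 gene, which was lower and not a member), and no member reached an unadjusted p under 0.05 (2.09% of all genes did). DESeq2 called 0 members and 6 of 16895 genes. Slc2a1 was not called by edgeR in these cells either, at a ratio of 3.35 (95% confidence interval 1.80 to 6.24). An absent call between genotypes thus does not show equal levels. The confidence intervals below take their spread from all 12 libraries of the fit, and the 2 WT libraries may come from 1 heart. They hold no sure measure of the spread between WT hearts and set no limit on a difference between hearts. For Gys1, with 165.6 to 201.5 CPM in transgenic and 185.5 and 182.2 CPM in WT libraries, the ratio was 0.995 (95% confidence interval 0.798 to 1.24). For Pygm it was 0.965 (0.821 to 1.13), for Pygb 0.983 (0.822 to 1.18), for Ugp2 0.962 (0.780 to 1.19) and for Gyg 0.895 (0.707 to 1.13). For Ppp1r3c the interval was far wider, from 0.369 to 3.91. No member had groups apart in Tnnt2low cells (11.4% of all genes).

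In Tnnt2high cells 0 of 9 members and 0.0% of all genes were called by edgeR, and DESeq2 called 0 members and 5 of 16895 genes. At an unadjusted p under 0.05 there were 2 members (5.31% of all genes). Gys1 was one, with 143.7, 144.6, 144.6 and 182.9 CPM in transgenic and 213.1 and 179.1 CPM in WT libraries (log2 fold change -0.35, SE 0.15, edgeR adjusted p = 0.899). Ugp2 was the other, with 211.9 to 255.5 CPM in transgenic and 179.7 and 182.3 CPM in WT libraries (0.32, SE 0.14, edgeR adjusted p = 0.899). Only for Ugp2 and Pygb were the 4 transgenic libraries apart from the 2 WT libraries, 2 of 9 members beside 12% of all genes. Pygb had 523.2 to 651.0 CPM in transgenic and 676.3 and 725.1 CPM in WT libraries (-0.24, SE 0.12, edgeR adjusted p = 0.899). Of the remaining 6 members, Phka1 had the widest difference (-0.41, SE 0.22, edgeR adjusted p = 0.899), with 22.2 to 38.9 CPM against 33.0 and 46.7 CPM. The population and genotype comparisons share libraries and are not independent of one another.

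Ppp1r3c varied by replicate far more than by population or genotype, and Pygl also varied by replicate. Ppp1r3c (chromosome 19, 36731731 to 36736653, minus strand; 51 to 559 reads per library) had 14.0, 15.4, 70.9 and 59.35 CPM in Tnnt2low and 16.55, 14.0, 83.3 and 70.2 CPM in Tnnt2high libraries of transgenic replicates 1 to 4. WT replicates 1 and 2 had 50.2 and 16.0 CPM in Tnnt2low and 67.8 and 18.2 CPM in Tnnt2high libraries. Both libraries of transgenic replicates 1 and 2 and of WT replicate 2 were thus at 18.2 CPM or less, both libraries of the other 3 replicates were at 50.2 CPM or more, and none lay between. The highest level was 5.97 times the lowest, where for Pygm this ratio was 1.18.

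Within a replicate, the Ppp1r3c levels of the 2 populations stayed close, with log2 differences of -0.43 to 0.14. Pygl (chromosome 12, 70190811 to 70231488, minus strand) had 52.7, 63.75, 124.5 and 90.3 CPM in Tnnt2low and 67.2, 62.4, 152.5 and 136.9 CPM in Tnnt2high libraries of the transgenic hearts. In WT replicates 1 and 2 it had 110.0 and 70.7 CPM in Tnnt2low and 137.7 and 63.3 CPM in Tnnt2high libraries. Within a replicate the populations differed more for Pygl, with log2 differences from -0.6 in transgenic replicate 4 to 0.16 in WT replicate 2. The 3 replicates with low Ppp1r3c were those with at most 70.7 CPM of Pygl, and the others had at least 90.3 CPM. Among 12251 other genes Ppp1r3c was the one whose log2 level ran closest to that of Pygl over the 12 libraries. In the other direction, Pygl ranked only 3 among the genes most like Ppp1r3c. These 12 libraries are 6 replicates with a pair of libraries each, which fall into separate levels, so no correlation is given.

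**Figure D4:**
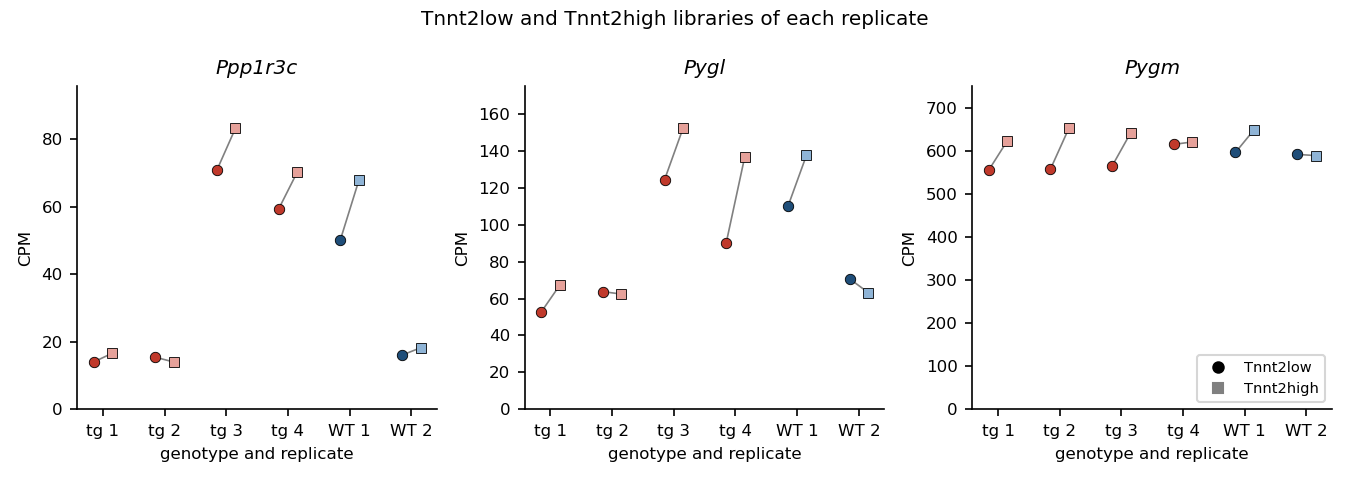
CPM of Ppp1r3c, Pygl and, for contrast, Pygm in the Tnnt2low (circle) and Tnnt2high (square) library of each replicate, joined by a line; red, Glut1 transgenic (tg); blue, WT. Ppp1r3c and Pygl are high in both libraries of tg 3, tg 4 and WT 1 and low in both of tg 1, tg 2 and WT 2, while Pygm stays between 554.8 and 652.2 CPM.

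Of the male hearts, transgenic replicate 2 was at the low and transgenic replicate 4 at the high level, and the part of sex was not tested. Endothelial markers differed between the same replicates. Their sum in Tnnt2low libraries was 8.41 and 9.77 CPM in transgenic replicates 1 and 2 and 13.2 CPM in WT replicate 2, against 42.6, 75.1 and 82.9 CPM in transgenic replicates 3 and 4 and WT replicate 1. In Tnnt2high libraries it was 29.1, 104.9 and 15.35 CPM against 239.5, 245.3 and 314.5 CPM. Within replicates the marker sum was higher in Tnnt2high than in Tnnt2low cells in 6 of 6, Ppp1r3c in 5 of 6 and Pygl in 4 of 6. Fibroblast marker sums of the same replicates, in the same order, overlapped. They were 65.8, 46.4 and 106.8 CPM against 60.3, 99.8 and 152.2 CPM in Tnnt2low libraries. In Tnnt2high libraries they were 897.8, 250.8 and 103.0 CPM against 388.1, 149.2 and 465.1 CPM. The part of endothelial or fibroblast RNA in the levels of both genes was not tested. No group comparison of Ppp1r3c or Pygl passed the test, and in Glut1 transgenic hearts the log2 fold change between the populations was -0.21 (SE 0.65, edgeR adjusted p = 0.863) for Ppp1r3c and -0.34 (SE 0.34, edgeR adjusted p = 0.538) for Pygl. This fit ignored the pairing by heart, so the spread among hearts widened its intervals. Its 95% confidence interval for Ppp1r3c ran from a ratio of 0.332 to 2.25. With the heart as replicate block the log2 fold change was -0.16 for Ppp1r3c (edgeR adjusted p = 0.516) and -0.31 for Pygl (edgeR adjusted p = 0.165).

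The promoters of these 2 members are shown because their levels ran together. Each is the 250 bases before the RefSeq transcript start (GRCm38.p6, minus strand, written 5′ to 3′), at chr19:36736605-36736854 for Ppp1r3c and chr12:70227684-70227933 for Pygl. The GENCODE extent of Pygl given above starts farther upstream, at 70231488, so the Pygl bases shown lie inside it. For Ppp1r3c the extent starts at 36736653, so only the shown bases nearest the RefSeq start lie inside it. Capitals mark ACGTG, the core of the hypoxia response element, and TGACG, a part of the cAMP response element, on either strand.
Ppp1r3c: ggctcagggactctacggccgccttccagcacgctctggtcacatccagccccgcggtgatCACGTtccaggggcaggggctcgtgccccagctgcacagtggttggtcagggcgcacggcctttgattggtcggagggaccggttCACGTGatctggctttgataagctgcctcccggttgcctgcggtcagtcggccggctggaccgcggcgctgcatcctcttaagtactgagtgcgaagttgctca
Pygl: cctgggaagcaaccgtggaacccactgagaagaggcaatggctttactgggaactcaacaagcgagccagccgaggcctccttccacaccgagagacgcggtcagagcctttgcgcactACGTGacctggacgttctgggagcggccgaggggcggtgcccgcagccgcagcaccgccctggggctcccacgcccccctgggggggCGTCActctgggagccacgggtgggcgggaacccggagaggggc
ACGTG on either strand matched 3 times in the Ppp1r3c promoter, 189, 104 and 103 bases before the start, of which the last 2 overlap as the palindrome CACGTG. It matched 1 time in the Pygl promoter, 131 bases before the start, and TGACG matched 1 time there, 44 bases before the start. Of 32851 mouse promoters of this length, 16.6% held ACGTG, 6.02% CACGTG and 17.8% TGACG. Among the 10 RefSeq starts of the 9 members, 5 held ACGTG (those of Ppp1r3c, Pygl, Pygb and Pygm and one of 2 starts of Ugp2), 1 held CACGTG and 2 held TGACG (Pygl and Pygb). TATAAA matched in none of the members and in 12.4% of all promoters, and CCAAT matched in Gys1, Ugp2 and Ppp1r3c and in 33.8% of all promoters. Such matches describe the letters only.

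Other genes of the pathway were read from a wider list of 35 genes, of which 32 were tested. Between the populations of Glut1 transgenic hearts 6 of 32 were called, 3 higher and 3 lower in Tnnt2low cells, beside the 16.7% of all genes given above, and their median log2 fold change was 0.12. Gsk3b, which phosphorylates and restrains glycogen synthase, had a mean of 141.5 ± 23.2 CPM in Tnnt2low and 80.8 ± 6.15 CPM in Tnnt2high cells (SD, n = 4 each; log2 fold change 0.81, SE 0.17, edgeR adjusted p = 0.00609). Prkaa2, a catalytic subunit of the energy sensor AMPK, had 258.9 ± 9.26 and 171.3 ± 4.25 CPM (0.60, SE 0.12, edgeR adjusted p = 0.0048). Hk2, the hexokinase that traps glucose as glucose-6-phosphate, also rose, with libraries that overlapped (0.46, SE 0.15, edgeR adjusted p = 0.0477). This call was lost with RLE scaling (adjusted p = 0.0527) and with only the compared groups in the edgeR fit (0.0511). Catalytic kinase genes of the list that did not pass included Hk1 (0.34, edgeR adjusted p = 0.0968), Gsk3a (0.19, 0.639), Prkaa1 (0.12, 0.748), Phkg1 (0.42, 0.686) and Phkg2 (0.12, 0.858).

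The genes that fell were Ppp1ca, a catalytic subunit of protein phosphatase 1 (265.7 ± 19.3 against 385.8 ± 30.9 CPM; log2 fold change -0.54, SE 0.12, edgeR adjusted p = 0.00758), Prkag1, a regulatory subunit of AMPK (-0.52, SE 0.12, edgeR adjusted p = 0.0109), and Pgm2, a phosphoglucomutase (-0.37, SE 0.11, edgeR adjusted p = 0.028, or 0.0605 with no filter on low counts). RefSeq lists Pgm1 and Pgm2 each as an older name of the other, so which of the 2 genes the row Pgm2 counts is uncertain. Ppp1ca and Prkag1 overlap exons of genes on the opposite strand. By length, Pgm2 aside, the genes that rose were longer than those that fell, with Gsk3b at 8.34 kb, Prkaa2 at 7.97 kb and Hk2 at 5.61 kb among those that rose, and Ppp1ca at 1.47 kb and Prkag1 at 1.65 kb among those that fell. With the offset for length and GC content none of the 6 stayed called by edgeR (adjusted p from 0.13 for Gsk3b to 0.734 for Ppp1ca). The log2 fold change was then 0.49 for Gsk3b, 0.33 for Prkaa2, 0.23 for Hk2, -0.09 for Ppp1ca, -0.15 for Prkag1 and -0.18 for Pgm2. None of the 32 genes was called in the other comparisons. The gene with the smallest p there was Prkab2 between WT populations (log2 fold change 0.61, SE 0.25, edgeR adjusted p = 1.0). It was Prkag1 between genotypes in Tnnt2high cells (0.34, SE 0.15, edgeR adjusted p = 0.899) and in the interaction (-0.43, SE 0.21, edgeR adjusted p = 0.961). Between genotypes in Tnnt2low cells it was Stbd1, a glycogen-binding protein (-1.02, SE 0.48, edgeR adjusted p = 1.0).

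For the 3 called members, the genes with the most similar pattern over the 12 libraries were listed by Pearson correlation of log2 CPM. They were Prdx2, Mrpl42 and Macrod1 for Ugp2 (r = 0.95 each), Ctsd (0.98), 2700029M09Rik (0.97) and Pfkm (0.97) for Gyg, and Melk (0.95), Cpt1a (0.94) and Numa1 (0.93) for Phka1. The libraries share hearts, populations and the length trend, so these values only describe likeness.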

How the data were processed

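mRNA libraries of the sorted cells were sequenced as single-end reads. The authors trimmed the reads, mapped them to mm10 with HISAT2 and counted them with HTSeq over the exons of each gene. No version of these tools and no strand setting is given in the sources used here. The deposited values are raw read counts of 24421 genes per library, with 5 totals that name no gene. The totals stayed out of library sizes and tests, and 0.886 to 2.63 reads outside exons were recorded per gene read.

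The quasi-likelihood test of edgeR 4.0.16, under R 4.3.3, was run after filterByExpr and TMM scaling. All 12 libraries entered 1 fit of 4 groups, and p-values were adjusted by Benjamini-Hochberg over 12252 genes. A gene was called at an adjusted p under 0.05 with no fold minimum. Exact permutation tests were two-sided and assigned libraries freely. CPM are TMM-normalised, and log2 CPM used a prior count of 2. The study tested with DESeq2, which was an alternative here (version 1.42.0), beside RLE scaling, no filter, robust dispersion, only the compared groups, an offset for length and GC content (loess span 0.3, 12188 genes), a sex term for comparisons between genotypes, the heart as replicate block (limma 3.58.1 between genotypes) and leaving out each library. The scripts were tested on simulated data. Python 3.11.15 (numpy 2.4.6, pandas 2.3.3) made the tables and matplotlib 3.10.9 the plots.

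GENCODE vM21 (mm10) gave exon lengths and coordinates and matched 24053 genes (98.49%), 677 through another symbol. Promoters came from RefSeq on GRCm38.p6. Same-numbered libraries of a genotype were taken as pairs, because the labels name the same heart for both, and their deviations from the group means correlated (r = 0.107 to 0.226 over the 4 transgenic hearts and 0.271 for WT, where 2 replicates give 1 value). Libraries of different transgenic hearts reached -0.151 to 0.12, so the pairing rests on the labels. Replicates differed by more than counting noise (chi-square per gene 13.4 to 26.5 over 14 pairs, for genes with at least 20 counts). The 9 members, the wider list and the marker lists were chosen with earlier results of these data known. Named genes were the members, each called gene of the wider list and otherwise those with the smallest p, the 3 genes most like each called member, and Slc2a1, Tnnt2, Xist and Ddx3y. Phka2 and the kinase genes that did not pass were named after their values were seen. A result of 1 single gene is not reported here.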

Additional observations from a re-analysis of the deposited data

Results flagged for a closer look

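Within the groups of 4 libraries, Gys1 in replicate 4 of Glut1 transgenic Tnnt2high cells (182.9 CPM) lay far from the other 3 libraries, with a gap of 0.977 of the group's range. Pygm in replicate 4 of Glut1 transgenic Tnnt2low cells (614.5 CPM) lay far from its group in the same way, with a gap of 0.842 of the range. These are 2 of 18 groups looked at, and chance alone marks about 1 group in 20.

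Pygb was higher in Tnnt2low than in Tnnt2high cells in each of the 4 Glut1 transgenic hearts (log2 differences 0.09, 0.20, 0.30 and 0.01) and lower in both WT replicates (-0.08 and -0.04). The means of these differences were 0.21 apart. This opposite sign is a description and was not tested as such. The interaction of the edgeR fit for Pygb was 0.21 on the log2 scale (SE 0.17, adjusted p = 0.961).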

How the results depend on the processing

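Between the populations of Glut1 transgenic hearts 1 member was called higher and 2 lower. With the length and GC offset these counts were 0 and 0, and with the replicate block and the offset together they were again 0 and 0. The number called lower was 1 with the replicate block alone, since Gyg was lost (adjusted p = 0.0658), and 1 with no filter on low counts (Gyg, 0.0564). Pairing by heart otherwise ended no call. Leaving out 1 library gave 0 to 1 members higher and 1 to 2 lower. Ugp2 was called without any one of the 12 libraries (adjusted p 0.0129 to 0.045). Gyg was lost without Tnnt2low replicate 1 (0.137), 2 (0.0641), 3 (0.0869) or 4 (0.0656) or Tnnt2high replicate 1 (0.126), 2 (0.1) or 4 (0.0504) of the transgenic hearts. Phka1 was lost without replicate 1 (0.0542), 2 (0.0731) or 4 (0.0594) of Tnnt2low or 1 (0.0596), 2 (0.0792) or 4 (0.0538) of Tnnt2high cells. No member was called in the other 4 comparisons under any setting run.

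Values near 0 changed sign in places. Between genotypes in Tnnt2low cells Gys1 was 0.0 with RLE scaling and with DESeq2 and 0.01 with the offset, without or with the block. In Tnnt2high cells Gyg was -0.09 with the offset, -0.08 with the block and offset and -0.02 with a sex term. Leaving out 1 library turned the sign, with ranges of log2 fold changes as follows. Between the transgenic populations Ppp1r3c ranged from -0.65 to 0.24. Between the WT populations the range was -0.2 to 0.03 for Gys1, -0.4 to 0.07 for Gbe1, -0.12 to 0.01 for Pygm, -0.14 to 0.01 for Pygb, -0.6 to 0.51 for Pygl, -0.14 to 0.38 for Phka1 and -1.4 to 0.86 for Ppp1r3c. Between genotypes in Tnnt2low cells it was -0.16 to 0.06 for Ugp2, -0.36 to 0.07 for Gyg, -0.06 to 0.04 for Gys1, -0.25 to 0.23 for Gbe1, -0.1 to 0.05 for Pygb, -0.41 to 0.22 for Pygl and -0.33 to 1.31 for Ppp1r3c. In Tnnt2high cells it was -0.11 to 0.15 for Gyg, -0.06 to 0.17 for Gbe1, -0.02 to 0.1 for Pygm, -0.39 to 0.72 for Pygl and -0.55 to 1.33 for Ppp1r3c. For the interaction it was -0.37 to 0.06 for Gyg, -0.31 to 0.17 for Gbe1, -0.85 to 0.26 for Pygl and -1.07 to 1.19 for Ppp1r3c. The cause was not tested for any of these. Only 2 libraries per WT population limit every comparison with WT cells.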

Other observations

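Phka2, the other alpha subunit of phosphorylase kinase and also X-linked, was low in the libraries of the male hearts. It had 21.7 and 12.15 CPM in Tnnt2low and 12.6 and 15.2 CPM in Tnnt2high cells of transgenic replicates 2 and 4. In transgenic replicates 1 and 3 it had 41.8 and 42.0 CPM in Tnnt2low and 40.0 and 39.2 CPM in Tnnt2high cells. In WT replicates 1 and 2 it had 37.7 and 42.8 CPM in Tnnt2low and 40.9 and 24.1 CPM in Tnnt2high cells. The share of Phka1 in the summed alpha subunit level per length ranged from 38.8% to 77.7% over the 12 libraries, with a mean of 52.8% ± 12 (SD).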
